A study of Mus musculus with 4 samples.

Results

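The 9 membrane adenylyl cyclases of the mouse, Adcy1 to Adcy9, were examined in hippocampal RNA of Lsd1 KI mice and their WT controls. Members were taken by gene symbol and matched to their Ensembl identifiers, which gave 9 of the 26328 genes listed in at least 1 sample. None of the 9 passed the threshold for a difference between genotypes, and 0 of the 18436 genes tested did. Adcy3, Adcy5, Adcy6 and Adcy7 had each KI value above each WT value, with means higher by 13.8%, 16.5%, 21.4% and 52.0% of the WT mean. Adcy1 and Adcy9 lay lower in both KI samples, at 0.906 and 0.897 times the WT mean, and Adcy2, Adcy4 and Adcy8 overlapped between genotypes. Of all genes tested, 24% had both KI values above both WT values and 18.1% had them below.

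Adenylyl cyclases are membrane enzymes that turn ATP into cyclic AMP (cAMP) when a receptor activates the stimulatory G protein alpha subunit. The cAMP then acts on protein kinase A, on the exchange factors EPAC1 and EPAC2 and on cyclic nucleotide-gated channels, and phosphodiesterases remove it. The family is sorted by its regulators. Adcy1, Adcy3 and Adcy8 are the calcium/calmodulin-stimulated class, Adcy2, Adcy4 and Adcy7 respond to G protein beta-gamma subunits, Adcy5 and Adcy6 are inhibited by Gi and by calcium, and Adcy9 responds poorly to the plant compound forskolin. In the hippocampus Adcy1 and Adcy8 are known for coupling calcium entry to cAMP in synaptic plasticity and memory.

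The Lsd1 KI mice carry an alanine in place of the serine of LSD1 that protein kinase C alpha phosphorylates. LSD1 is a lysine demethylase of histones encoded by Kdm1a. Each genotype had 2 samples of hippocampal tissue from male C57BL/6 mice, and the series compared KI with WT to find genes whose RNA depends on this site. The labels give an age of 8 to 15 weeks and a littermate design for the mice of the behavioural tests, and the study's text describes the RNA samples as littermates too. An age for the RNA samples, and whether each sample was 1 animal, is not given in the sources used here. The p-values therefore measure the spread between these samples, which may be technical.

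Expression was given by the authors as RPKM, the number of reads divided by the exon length and by the mapped reads of the sample, so levels can be set side by side between genes. The steps between low values gave the read total used in this division. It was 13414957 and 8827967 in WT replicates 1 and 2 and 14381252 and 14949756 in KI replicates 1 and 2. At least 99.1% of each total fell on genes whose reads were worked out, so it may leave out mapped reads outside genes. Kdm1a was at 11.6 and 11.2 RPKM in the WT and 10.97 and 11.2 RPKM in the KI samples. Since the allele changes an amino acid and not the amount of RNA, this does not check the genotype labels. The hippocampal neuron markers, including Prox1, Wfs1, Neurod6 and Zbtb20, were detected in every sample, with summed levels of 295 and 297 RPKM in the WT and 271 and 291 RPKM in the KI samples. KI replicate 1 stood apart in choroid plexus RNA, with 61.0 RPKM summed over 6 markers against 14.4 to 19.9 RPKM in the other samples. Without KI replicate 1 each of the 9 members kept the direction of its log2 fold change, and the values that moved most are given with the genes below.

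Bases before a RefSeq start are shown for 4 members that carry the contrast described here. Adcy5 and Adcy7 had higher and Adcy1 and Adcy9 lower KI values. Each sequence is the 250 bases before a transcription start in the RefSeq table for GRCm38.p6, read 5′ to 3′ on the strand of the gene. The window of Adcy7 lies inside the gene as GENCODE M21 places it, and so do its other windows. The last bases checked after each start were in a GENCODE M21 transcript of the gene for Adcy5 and Adcy9, and not for Adcy1 and Adcy7. Capitals mark the letters CACGTG (the E-box of clock and other helix-loop-helix factors) and GGGCGG or its reverse complement CCGCCC (the GC-box of Sp factors). The windows are Adcy1 on chr11:7063183-7063432 (plus strand), Adcy5 on chr16:35154614-35154863 (plus strand), Adcy7 on chr8:88293954-88294203 (plus strand, the only 1 of its 3 windows with a match) and Adcy9 on chr16:4420499-4420748 (minus strand).
Adcy1: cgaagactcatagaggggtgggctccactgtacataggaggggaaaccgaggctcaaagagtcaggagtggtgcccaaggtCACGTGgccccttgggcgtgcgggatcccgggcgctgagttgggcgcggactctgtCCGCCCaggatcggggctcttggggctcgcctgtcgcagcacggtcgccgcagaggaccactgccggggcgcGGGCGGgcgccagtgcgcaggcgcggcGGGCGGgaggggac
Adcy5: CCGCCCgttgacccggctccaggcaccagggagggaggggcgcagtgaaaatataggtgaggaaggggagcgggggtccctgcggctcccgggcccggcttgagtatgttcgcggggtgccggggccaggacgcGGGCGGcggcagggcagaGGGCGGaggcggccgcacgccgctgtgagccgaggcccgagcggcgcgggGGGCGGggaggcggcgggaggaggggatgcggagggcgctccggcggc
Adcy7: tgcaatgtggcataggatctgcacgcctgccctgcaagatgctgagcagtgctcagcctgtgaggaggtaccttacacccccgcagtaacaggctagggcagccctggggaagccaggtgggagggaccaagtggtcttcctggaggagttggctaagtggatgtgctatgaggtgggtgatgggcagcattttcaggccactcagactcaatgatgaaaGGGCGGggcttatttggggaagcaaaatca
Adcy9: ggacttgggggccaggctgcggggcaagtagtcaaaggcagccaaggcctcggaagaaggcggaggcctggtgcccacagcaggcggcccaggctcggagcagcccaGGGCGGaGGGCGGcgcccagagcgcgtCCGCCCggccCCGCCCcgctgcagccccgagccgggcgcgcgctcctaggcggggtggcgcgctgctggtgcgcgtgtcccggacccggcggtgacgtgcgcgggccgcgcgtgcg

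The RefSeq table held 10 windows for 7 of the 9 members and none for Adcy6 and Adcy8. The cAMP response element TGACGTCA was in none of the 10 windows and in 1.55% of all 32851 windows. The E-box was in 1 of the 10, that of Adcy1, and in 6.02% of all windows. The GC-box was in 6 of the 10 and in 32.7% of all windows, and it was searched after the other motifs had been looked at. All motifs were read on both strands, and no marked matches of different motifs overlapped. The windows of Adcy1, Adcy5 and Adcy9 were 71.2%, 78.0% and 78.8% G and C, that of Adcy2 was 73.2%, the 2 windows of Adcy3 were 68.8% and 56.0%, and the single window of Adcy4 and the 3 windows of Adcy7 were 54.0% to 56.4%, beside a median of 52.4% over all windows. The low-level members Adcy4 and Adcy7 were thus nearer to the median than the 4 members with the highest levels. With so few windows this is a description, and a match in letters does not show that a factor binds.

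Transcripts of all 9 members were detected in every sample, over a 75.3-fold span from the highest to the lowest mean level. Adcy1 was the most abundant cyclase, at 2.53 times the mean level of Adcy2, and it alone made up 49.1% and 49.2% of the summed RPKM of the family in the WT samples. Adcy2 stood at 1.94 times Adcy5. Adcy5 and Adcy9 overlapped in their ranges, and so did Adcy6 with Adcy3 and Adcy7 with Adcy4. Adcy8 stood alone between the last 2 of these pairs, at 4.59 to 6.65 RPKM. In each of the 4 samples the order from high to low was Adcy1, Adcy2, the pair Adcy5 and Adcy9, Adcy6, Adcy3, Adcy8, and the pair Adcy7 and Adcy4. Among the 18436 genes tested, Adcy1 was at the 97.6th percentile of mean level and Adcy4 at the 17.6th. The soluble cyclase Adcy10, which answers to bicarbonate and is no member, was at 0.172 to 0.217 RPKM and below the filter on low values.

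**Figure D1:**
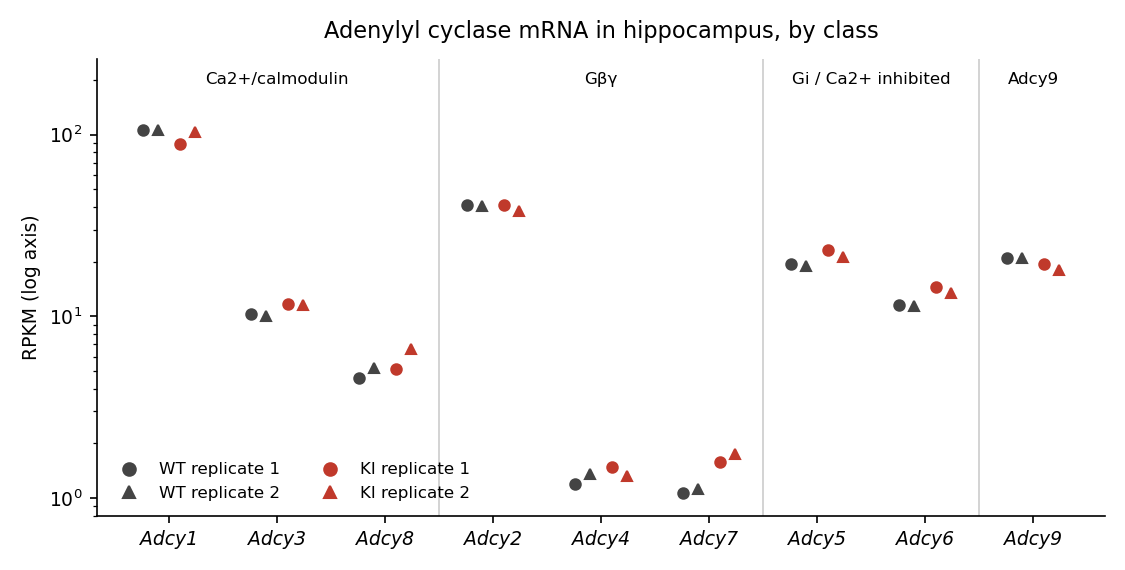
RPKM of each membrane adenylyl cyclase in the 4 hippocampal samples on a log axis, with genes grouped by class, 1 point per sample, WT in grey and KI in red. Adcy1 lies at 89.2 to 106 RPKM and Adcy4 and Adcy7 near 1 RPKM, and the genotypes differ far less than the genes do.

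Adcy1 (ENSMUSG00000020431, chr11:7063489-7178506, plus strand) is the calmodulin-stimulated cyclase of neurons. It was at 106 RPKM in both WT samples and at 89.2 and 103 RPKM in KI replicates 1 and 2. Both KI samples lay below both WT samples, and the KI samples were further from each other than KI replicate 2 was from the WT. The log2 fold change, on log2(RPKM + 1) as for all fold changes below, was -0.14 (95% interval -0.35 to 0.06, adjusted p = 0.608, limma). Without KI replicate 1 it was -0.04, so KI replicate 1 set most of the difference. With 16060 reads on Adcy1 in KI replicate 1, the exact Poisson interval of its level was 87.8 to 90.6 RPKM, and that of KI replicate 2 was 101 to 104 RPKM, so the gap between the 2 KI samples was larger than counting error, which is all that these intervals cover.

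Markers of dentate granule cells, which are among the hippocampal neurons, were low in the same sample. Prox1, the granule cell homeobox factor, was at 17.3 and 16.9 RPKM in the WT and at 10.2 and 13.1 RPKM in the KI samples. C1ql2, a secreted synaptic protein, was at 41.8 and 44.0 RPKM in the WT and at 30.7 and 34.2 RPKM in the KI samples. Dsp, a desmosome protein, was at 10.01 and 9.73 RPKM in the WT and at 5.03 and 7.46 RPKM in the KI samples. All 3 were lowest in KI replicate 1, as Adcy1 was, and none passed the threshold (adjusted p = 0.405, 0.336 and 0.468 in limma). These 3 of the 9 hippocampal markers were picked after their values were seen. The other 6 overlapped between genotypes. Of these, Wfs1 and Spink8, markers of CA1 neurons, were also lowest in KI replicate 1 and highest in KI replicate 2. Wfs1 was at 28.6 and 50.9 RPKM and Spink8 at 13.2 and 18.1 RPKM in these samples. Neurod6 and Grik4 went the other way, highest in KI replicate 1 and lowest in KI replicate 2. Neurod6 was at 129.5 and 113.5 RPKM and Grik4 at 12.3 and 10.1 RPKM there. In bulk tissue fewer cells of a type and less RNA per cell cannot be told apart, and the part of cell composition in the Adcy1 values was not tested.

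Adcy8 (ENSMUSG00000022376, chr15:64697084-64922296, minus strand), the other calmodulin-stimulated cyclase of hippocampal plasticity, was at 4.59 and 5.20 RPKM in the WT and 5.14 and 6.65 RPKM in the KI samples. The groups overlapped, and KI replicate 2 stood above the other 3 samples. The log2 fold change was 0.22 (95% interval -0.14 to 0.57, adjusted p = 0.646, limma), which became 0.06 without KI replicate 2 and 0.38 without KI replicate 1.

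Adcy3 (ENSMUSG00000020654, chr12:4133103-4213525, plus strand), the cyclase of olfactory neurons and of neuronal primary cilia, was at 10.3 and 10.1 RPKM in the WT and 11.6 and 11.5 RPKM in the KI samples. The 2 KI samples were close to each other and above both WT samples, with a log2 fold change of 0.17 (95% interval 0.02 to 0.32, adjusted p = 0.490, limma). Its exons share 1380 bases with those of Cenpo, a centromere protein gene on the opposite strand, in the GENCODE annotation. Cenpo was at 3.46 and 3.38 RPKM in the WT and 3.88 and 4.27 RPKM in the KI samples. Strand was not stated for the counting, so reads of the 2 genes cannot be told apart in the shared bases.

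Of the class that answers to G protein beta-gamma subunits, Adcy2 (ENSMUSG00000021536, chr13:68620043-68999541, minus strand) was the abundant member. It was at 40.7 RPKM in both WT samples and in KI replicate 1 and at 37.7 RPKM in KI replicate 2. Its log2 fold change of -0.05 (95% interval -0.20 to 0.09, adjusted p = 0.793, limma) came from KI replicate 2 alone, since it was 0.000342 without that sample.

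Adcy7 (ENSMUSG00000031659, chr8:88272403-88329962, plus strand), a cyclase also known from blood and immune cells, showed the largest proportional difference of the family. It was at 1.06 and 1.13 RPKM in the WT and at 1.58 and 1.74 RPKM in the KI samples, and the groups did not overlap. The log2 fold change was 0.35 (95% interval 0.06 to 0.63, adjusted p = 0.487, limma). These low levels rest on at least 60 and 42 reads in the WT and at least 96 and 110 reads in the KI samples, and the added 1 RPKM shrinks the change of so low a gene. On the reads, with limma-voom, a method chosen after the RPKM result was seen, the log2 fold change was 0.61 (adjusted p = 0.157). The exact Poisson intervals, 0.812 to 1.52 RPKM in WT replicate 2 and 1.28 to 1.93 RPKM in KI replicate 1, overlapped when taken at these lowest read numbers.

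Microglial markers were set beside Adcy7. The 11 markers summed to 166 and 167 RPKM in the WT and 199 and 196 RPKM in the KI samples. Of the 11, 5 had an unadjusted p under 0.05 with KI higher in limma, beside 6.3% of all genes. None passed the threshold. The complement genes C1qa, C1qb and C1qc made up most of the difference, with sums of 62.4 and 65.9 RPKM in the WT and 88.3 and 93.7 RPKM in the KI samples. They lie on chromosome 4 close to Kdm1a, C1qa at chr4:136895917-136898803 and Kdm1a at chr4:136550540-136602723. The other 8 markers summed to 103 and 101 RPKM in the WT and 111 and 102 RPKM in the KI samples, which overlapped. Among these 8, and beside the same 6.3% of all genes, 2 had an unadjusted p under 0.05 with KI higher in limma. They were Tmem119, a microglial membrane protein, at 5.51 and 5.53 RPKM in the WT and 6.61 and 7.43 RPKM in the KI samples, and Aif1, an actin-binding protein, at 1.80 and 1.55 RPKM in the WT and 2.41 and 2.18 RPKM in the KI samples. Csf1r, the receptor of colony stimulating factor, also lay higher in both KI samples. Cx3cr1, a chemokine receptor that defines microglia, was at 11.7 to 12.7 RPKM with overlapping groups, and P2ry12, the microglial ADP receptor, was lower in both KI samples. No member of the adenylyl cyclase family lies on chromosome 4.

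**Figure D2:**
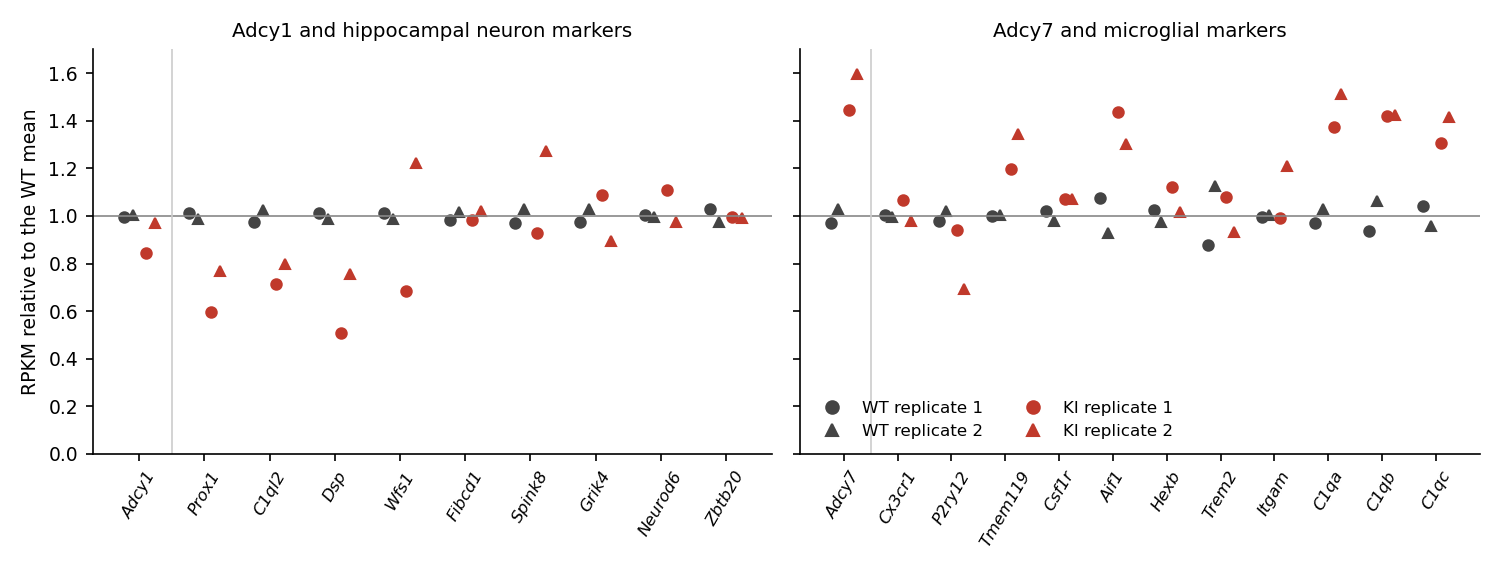
RPKM of each gene relative to its WT mean, 1 point per sample, for Adcy1 with 9 hippocampal neuron markers on the left and Adcy7 with 11 microglial markers on the right. Prox1, C1ql2 and Dsp share with Adcy1 a lowest value in KI replicate 1, as do Wfs1 and Spink8, while Neurod6 and Grik4 have their highest value there. On the right C1qa, C1qb, C1qc, Aif1, Tmem119 and Csf1r have both KI values above both WT values as Adcy7 does, P2ry12 has them below, and the other 4 markers overlap.

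Adcy4 (ENSMUSG00000022220, chr14:55769057-55784095, minus strand) was at 1.19 and 1.36 RPKM in the WT and 1.49 and 1.32 RPKM in the KI samples. The groups overlapped, and the log2 fold change was 0.08 (95% interval -0.22 to 0.38, adjusted p = 0.863, limma) on at least 42 to 75 reads per sample. With each sample left out in turn it ran from 0.03, without WT replicate 1 or KI replicate 1, to 0.13, without WT replicate 2 or KI replicate 2. At this depth the interval leaves room for a 1.30-fold increase in RPKM + 1 or a decrease to 0.858 of it. The room in RPKM itself is wider, since the added 1 RPKM shrinks changes at so low a level. Endothelial markers summed to 63.0 and 71.5 RPKM in the WT and 67.0 and 67.3 RPKM in the KI samples.

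The Gi- and calcium-inhibited class was the only 1 of the 4 classes whose members all had KI values above WT values. Adcy6 (ENSMUSG00000022994, chr15:98589973-98610076, minus strand), a widely expressed cyclase, was at 11.5 and 11.4 RPKM in the WT and 14.4 and 13.4 RPKM in the KI samples. Its 2 WT samples were nearly equal and both KI samples stood clear of them. It had the smallest p of the family, with a log2 fold change of 0.26 (95% interval 0.09 to 0.42, adjusted p = 0.414, limma). By limma-voom on the reads, a method added after the main result, the log2 fold change was 0.28 with an adjusted p of 0.0706. Adcy6 had at least 605 to 1249 reads per sample. It was the 1 member past the threshold by that method, beside 1.44% of all genes. Over the other ways of fitting, the log2 fold change stayed between 0.21 and 0.31 and the adjusted p reached 0.729.

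Adcy5 (ENSMUSG00000022840, chr16:35154877-35305738, plus strand) is the main cyclase of striatal neurons. It was at 19.3 and 18.8 RPKM in the WT and 23.2 and 21.2 RPKM in the KI samples. The groups did not overlap, and the log2 fold change was 0.21 (95% interval 0.04 to 0.38, adjusted p = 0.483, limma). Striatal markers summed to 53.6 and 51.2 RPKM in the WT and 58.8 and 55.0 RPKM in the KI samples. Of the 10, 3 had an unadjusted p under 0.05 with KI higher in limma, beside 6.3% of all genes, and none passed the threshold. The dopamine receptor Drd2 was at 1.30 and 1.24 RPKM in the WT and 2.51 and 2.46 RPKM in the KI samples, and Pde10a, the striatal phosphodiesterase, was lower in both KI samples. Their part in the Adcy5 values was not tested.

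Summed over Adcy5 and Adcy6, the class was at 30.9 and 30.2 RPKM in the WT and 37.6 and 34.7 RPKM in the KI samples, 5.59 RPKM or 1.18 times higher in KI. The exact permutation test gave p = 0.3333, two-sided, the smallest that 2 samples against 2 allow. The calmodulin-stimulated class was at 121 RPKM in WT replicates 1 and 2, 106 RPKM in KI replicate 1 and 121 RPKM in KI replicate 2 (exact permutation p = 0.667). The beta-gamma class was at 43.0, 43.2, 43.8 and 40.8 RPKM in the same order (exact permutation p = 1).

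Adcy9 (ENSMUSG00000005580, chr16:4287529-4420498, minus strand), which forms a class of its own, was at 20.9 and 20.8 RPKM in the WT and 19.4 and 18.1 RPKM in the KI samples. The 2 WT samples were nearly equal and both KI samples lay below them, with a log2 fold change of -0.15 (95% interval -0.30 to 0.00, adjusted p = 0.516, limma). It shares chromosome 16 with Adcy5, which lay the other way.

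Since Adcy5 and Adcy9 were at nearly the same level, their order differed between genotypes. The ratio of Adcy5 to Adcy9 within a sample, which does not depend on depth, was 0.926 and 0.903 in the WT and 1.198 and 1.175 in the KI samples. The genotype means were 0.915 ± 0.0163 and 1.19 ± 0.0163 (SD, n = 2 each). Adcy7 exceeded Adcy4 in both KI samples, with ratios of 1.06 and 1.32, and was below it in both WT samples, with ratios of 0.889 and 0.829. These pairs were chosen because their order differed, so their ratios are given as a description with no test. In the other close pair, Adcy6 exceeded Adcy3 in every sample, with ratios of 1.12 and 1.13 in the WT and 1.24 and 1.16 in the KI samples. The pair of Adcy7 and Adcy4 rests on few reads per gene.

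**Figure D3:**
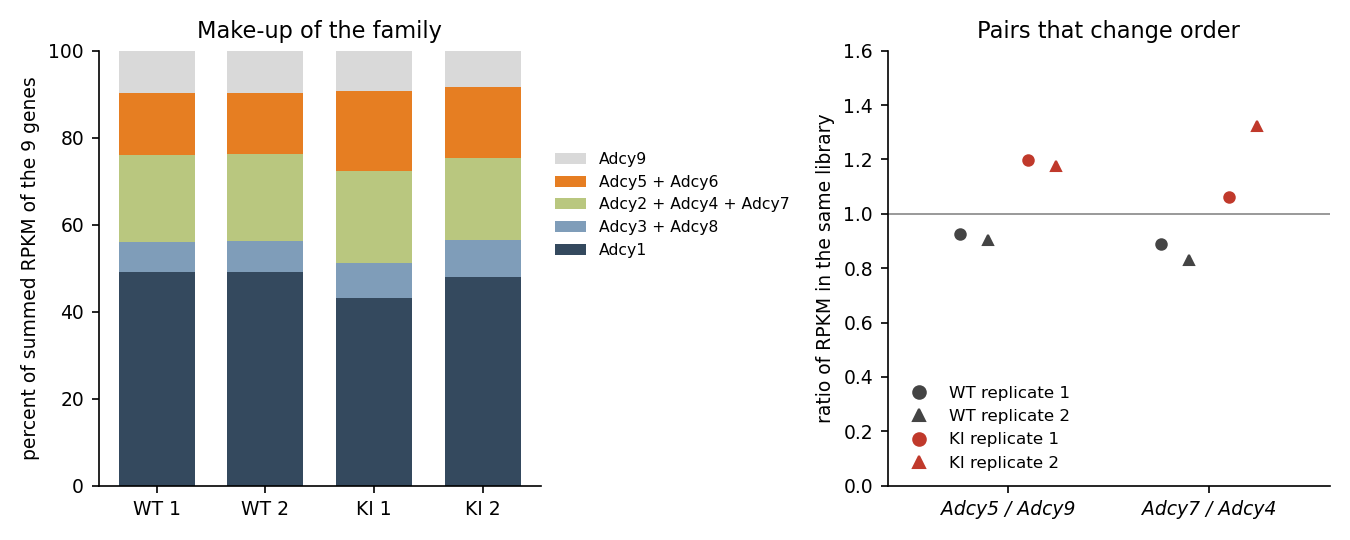
Left, stacked shares of the 9 cyclases in their summed RPKM in each sample. Right, the ratio of Adcy5 to Adcy9 and of Adcy7 to Adcy4 within each sample, with a line at 1. Adcy1 makes up 43.1% to 49.2% of the family, Adcy5 and Adcy6 together 14.0% to 14.4% in WT and 16.2% to 18.2% in KI, and both ratios are below 1 in WT and above 1 in KI.

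The summed level of the family differed little between genotypes, at 215 and 216 RPKM in the WT and 207 and 214 RPKM in the KI samples, or 0.977 times as high in KI. The difference of -4.87 RPKM was -1.01 RPKM without KI replicate 1 and -8.72 RPKM without KI replicate 2, so its size rested on which KI sample was used. Without Adcy1 the other 8 members summed to 110 RPKM in both WT samples and to 118 and 112 RPKM in KI replicates 1 and 2. Neither sum overlapped between genotypes, and they lay in opposite directions (exact permutation p = 0.3333 for each). The share of Adcy5 was 8.98% and 8.73% in the WT and 11.2% and 9.90% in the KI samples, and that of Adcy1 was 49.1% and 49.2% in the WT and 43.1% and 47.9% in the KI samples.

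Against all 18436 genes tested, 0 of the 9 members and 0% of all genes passed the threshold of an adjusted p under 0.1 and a 1.2-fold change in limma, where 1774 genes had an unadjusted p under 0.05. At an unadjusted p under 0.05, 4 of 9 were higher in KI beside 6.30% of all genes, and 0 of 9 were lower beside 3.33%. Both KI samples lay above both WT samples for 4 of 9 members beside 24% of all genes, and below for 2 of 9 beside 18.1%. The median log2 fold change of the members was 0.17, that of all genes 0.01, and the middle 90% of all genes ran from -0.25 to 0.36, a range that holds every member. By limma-voom, 1 of 9 members passed the threshold beside 1.44% of all genes. Of the 9 log2 fold changes 6 were above 0 and 3, those of Adcy1, Adcy2 and Adcy9, below.

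**Figure D4:**
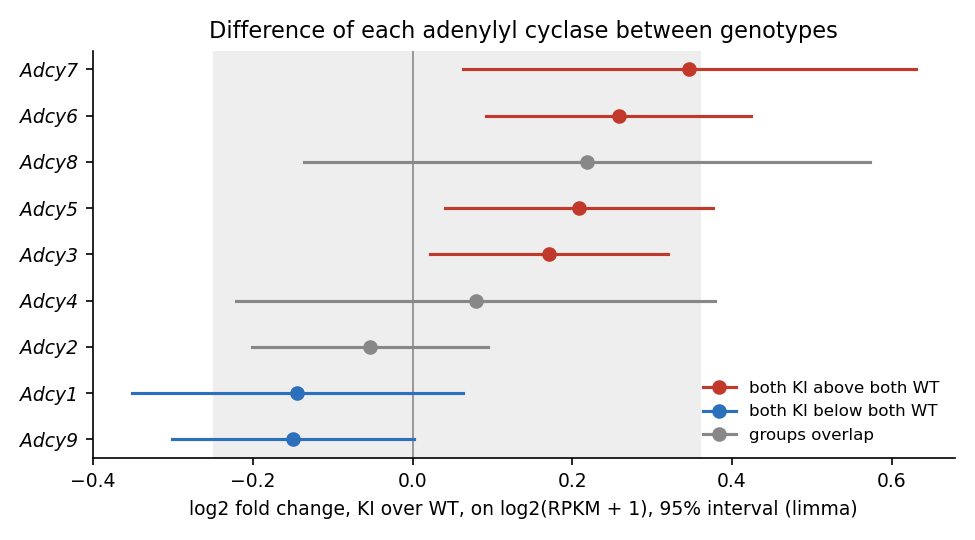
Log2 fold change of each member, KI over WT, with its 95% interval from limma, ordered by size. The grey band holds the middle 90% of all 18436 genes, and colour gives whether the samples of the genotypes overlap. All 9 estimates lie inside the band, from -0.15 for Adcy9 to 0.35 for Adcy7.

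The genes that act before and after the cyclases were taken from lists covering 98 genes, of which 97 were found and 90 tested. None passed the threshold in limma, and the median log2 fold change was 0.01. At an unadjusted p under 0.05 in limma, 6 of the 90 were higher in KI beside 6.3% of all genes, and 1 was lower beside 3.33%. Of the 90, 23 lay higher in both KI samples and 21 lower, beside 24% and 18.1% of all genes. Both stimulatory alpha subunits lay higher in KI. Gnas was at 92.8 and 95.1 RPKM in the WT and 99.6 and 100.4 RPKM in the KI samples, and Gnal, the olfactory and striatal form, was at 26.0 and 24.7 RPKM in the WT and 29.3 and 27.2 RPKM in the KI samples. Their log2 fold changes were 0.09 and 0.15, with adjusted p = 0.572 and 0.532 in limma.

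Among the 14 tested beta and gamma subunits, 6 lay higher in both KI samples and 0 lower, beside 24% and 18.1% of all genes. The gamma subunit Gng4 was at 8.36 and 8.10 RPKM in the WT and 12.2 and 13.2 RPKM in the KI samples, a log2 fold change of 0.57 (95% interval 0.39 to 0.75, adjusted p = 0.307, limma). By limma-voom it passed the threshold, with an adjusted p of 0.00285. Gng11 was at 4.91 and 4.12 RPKM in the WT and 5.61 and 6.00 RPKM in the KI samples. The 5 inhibitory alpha subunits had a median log2 fold change of 0.01, and Gnao1, the most abundant, had 0.09.

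Of 15 tested Gs-coupled receptors, 5 lay higher and 2 lower in both KI samples, beside the same 24% and 18.1%. Glp1r, the receptor of glucagon-like peptide 1, was at 1.36 and 0.918 RPKM in the WT and 2.96 and 2.44 RPKM in the KI samples, with a log2 fold change of 0.79 (adjusted p = 0.340, limma) that also passed the threshold by limma-voom (adjusted p = 0.0739). Crhr1, the receptor of corticotropin-releasing hormone, was at 3.67 and 3.31 RPKM in the WT and 4.89 and 4.30 RPKM in the KI samples. Adcyap1r1, the PACAP receptor and the most abundant of these, was at 28.8 and 28.3 RPKM in the WT and 25.1 and 27.8 RPKM in the KI samples, with a log2 fold change of -0.10 (adjusted p = 0.654, limma).

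Calmodulin and calcineurin genes read the calcium signal. Of the 7, 0 had an unadjusted p under 0.05, beside 6.3% of all genes with KI higher and 3.33% with KI lower. Ppp3ca, a calcineurin catalytic subunit, was at 375 and 369 RPKM in the WT and 310 and 352 RPKM in the KI samples, lowest in KI replicate 1 like Adcy1, with a log2 fold change of -0.17 (adjusted p = 0.556, limma). Of the 9 protein kinase A genes 0 had an unadjusted p under 0.05, beside the same 6.3% and 3.33%. The inhibitor Pkia, at 42.7 RPKM in both WT and at 35.6 and 39.9 RPKM in the KI samples, had the largest difference at -0.18. The exchange factor Rapgef3 (EPAC1) had a log2 fold change of 0.24, with adjusted p = 0.557 in limma. The 9 kinase anchors had a median of -0.04, and Akap1 was at -0.11.

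Among the 14 tested phosphodiesterases, 4 lay higher and 5 lower in both KI samples, beside the same 24% and 18.1%. Pde4a was at 16.6 and 17.7 RPKM in the WT and 20.2 and 20.1 RPKM in the KI samples (log2 fold change 0.22, adjusted p = 0.435, limma). Pde8b was at 14.0 and 14.3 RPKM in the WT and 16.3 and 15.7 RPKM in the KI samples (log2 fold change 0.17, adjusted p = 0.490, limma). Of the 8 CREB factors and coactivators 4 lay lower in both KI samples and 0 higher, beside 18.1% and 24% of all genes. Crtc1, the calcineurin-dependent coactivator of CREB, was at 28.1 and 29.0 RPKM in the WT and 25.7 and 25.2 RPKM in the KI samples (log2 fold change -0.16, adjusted p = 0.482, limma). It was the only gene of the lists with an unadjusted p under 0.05 and KI lower in limma.

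**Figure D5:**
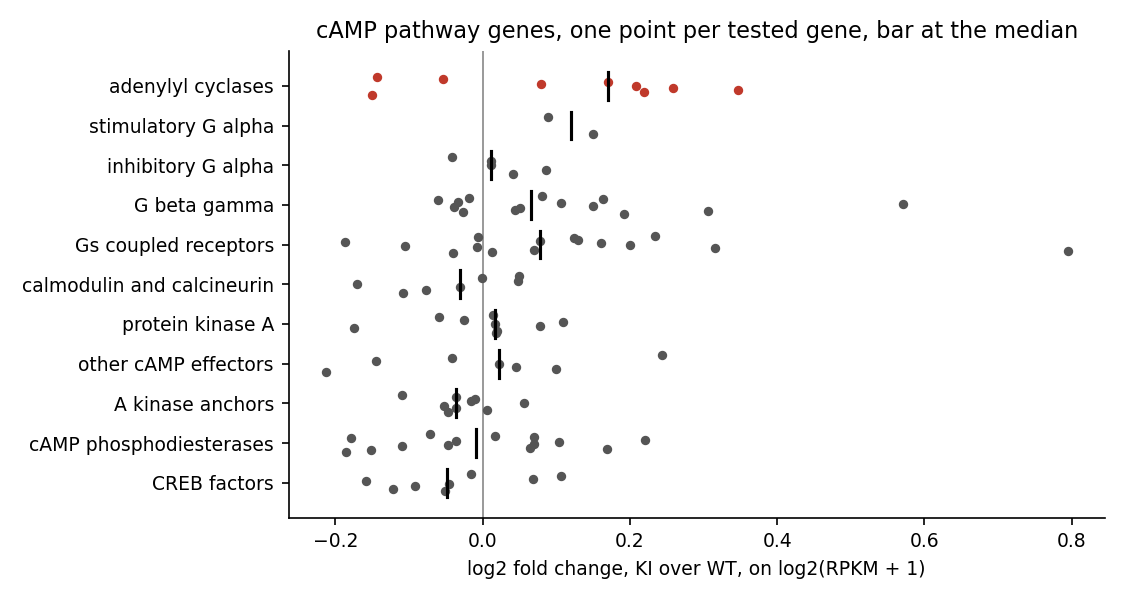
Log2 fold change, KI over WT, of each tested gene of the cAMP pathway by list, with a bar at the median of the list and the 9 cyclases in red on top. The cyclases have a median of 0.17. The stimulatory alpha subunits, Gs-coupled receptors and beta and gamma subunits have medians of 0.12, 0.08 and 0.07. The other lists have medians between -0.05 and 0.02, and Glp1r and Gng4 lie furthest to the right.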

How the data were processed

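Hippocampal poly(A) RNA from 2 samples of each genotype was sequenced as read pairs. The authors used GSNAP to align the pairs to mm10, retained those that mapped properly and to 1 place, and deposited RPKM values per sample on Ensembl release 74 genes. CASAVA is named in the submitters' notes, and the counting tool is not given in the sources used here. The authors' differential test used edgeR, with a 1.5-fold change and an adjusted p cutoff of 0.1, and found genes that differed between genotypes. The main limma fit used here, on RPKM, called 0 of 18436 genes, so its lack of calls is not particular to the cyclases. The paper also reported Crhr1 and Drd2 as higher in KI by quantitative RT-PCR of hippocampal RNA.

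From the deposited RPKM, log2(RPKM + 1) was fitted with limma 3.58.1 in R 4.3.3 (with a mean-variance trend) over the 18436 genes that reached 0.5 RPKM in at least 2 samples. Absent genes were set to 0. The threshold was an adjusted p under 0.1, Benjamini-Hochberg over all these genes, together with at least a 1.2-fold change. Reads per gene were worked out from the whole-read steps for 97.7% of genes. The GENCODE M21 exon length was used where it gave whole reads, as for Adcy1, Adcy2, Adcy3 and Adcy9. Otherwise the smallest fitting length, where possible not under the longest M21 coding sequence, was taken. The reads of Adcy4, Adcy5, Adcy6, Adcy7 and Adcy8, whose lengths were found in this way, are therefore lower bounds. Reads gave the precision and entered limma-voom, an alternative added after the main result. The code was tested on simulated data. Named pathway genes are the most abundant and the 2 with the smallest p of each list, and marker genes given singly were picked after their values were seen. The result of 1 pathway gene is not reported here. Sums were compared by exact permutation tests. Positions come from GENCODE M21 and upstream sequences from RefSeq (GRCm38.p6). The members, lists and classes were chosen with earlier results of these data known. Other steps ran in Python 3.11.15 (numpy 2.4.6, pandas 2.3.3, scipy 1.17.1).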

Additional observations from a re-analysis of the deposited data

How the results depend on the processing

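No member changed its side of the threshold with another pseudocount, no filter, a filter on reads, other scalings, no trend or the replicate block. A 1.5-fold threshold, being stricter, could not add a gene. With another pseudocount, no filter, other scalings or the replicate block 0 of all genes passed. Those settings therefore show nothing particular to the members. Genes past the threshold numbered 0 in limma as planned, 1 with at least 10 reads in every sample, 20 without the mean-variance trend, and, by fits added after seeing the data, 260 with limma-voom and 49 with the replicate block and at least 10 reads. Members past it numbered 0, except 1 with limma-voom (Adcy6, log2 fold change 0.28). Pathway genes past it numbered 0 as planned, 2 with limma-voom and 2 with the replicate block and at least 10 reads, Glp1r and Gng4 in both.

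Samples with the same number did not deviate together (r = -0.0249 across 18436 genes, which are not independent replicates). With 2 samples per genotype this cannot show whether the numbers pair them. The planned replicate block gave 0 genes and 0 members past the threshold.

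Without KI replicate 2 the log2 fold change of Adcy2 was 0.000342, against -0.11 without KI replicate 1, and the KI minus WT difference of the beta-gamma class turned positive. With each sample left out in turn that difference ran from -2.29 to 0.712 RPKM. The log2 fold change of Adcy1 ran from -0.25 to -0.04 and that of Adcy8 from 0.06 to 0.38. The median of the Gs-coupled receptors was 0.08, with 0.20 without KI replicate 1 and -0.00019 without WT replicate 1. Other scalings moved the median of all genes by -0.01 and -0.02 and turned no member. Why the fits differ was not tested. Adcy4 and Adcy7 are limited by depth, with at least 42 reads on each in WT replicate 2.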
